A study of Mus musculus with 4 samples.

Results

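The genes described here encode proteins of the red cell membrane and of the protein skeleton beneath it. They are 8 named genes (Slc4a1, Sptb, Ank1, Rhag, Rhd, Kel, Add2 and Dmtn), a list given by name, of the 32285 genes in the count tables. They were read in single-cell RNA profiles of livers from male mouse offspring. The groups were fetal offspring at E18.5, shortly before birth, of mothers with intrauterine hyperglycemia (IHG), fetal offspring of control mothers (Ctrl), and adult offspring at 8 weeks of IHG and of Ctrl mothers. Each group is 1 library, made from livers pooled from 3 pregnant mice or 3 adult animals. All livers were digested with enzymes and put through a red cell lysis step, and in adults blood was first flushed out by way of the portal vein. The strain and the way the mothers were made hyperglycemic are not given in the labels used here. Since each group is a single library, no difference between groups could be tested or checked in a replicate. Intervals below are exact 95% intervals that cover counting error only, not differences between animals, dissociations or captures.

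A mature red cell survives in the circulation because a lattice of spectrin lies under its membrane and is tied to membrane-spanning proteins. Ankyrin ties spectrin to the anion exchanger band 3 and to the Rh complex, while adducin and dematin hold spectrin and short actin filaments together at junctions. In the fetus the liver is the main site where red cells are made. Erythroid precursors there fill with haemoglobin messenger RNA, stop dividing and lose their nucleus, and the membrane and its skeleton are assembled along the way.

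Band 3 is encoded by Slc4a1 (chromosome 11, 102348824 to 102366203, minus strand, mm10), and it exchanges chloride for bicarbonate. Rhag (chromosome 17, 40811126 to 40840754, plus strand) encodes the Rh-associated glycoprotein, which conducts ammonia. Its partner in the Rh complex is the Rh protein itself, encoded by Rhd (chromosome 4, 134864536 to 134896172, plus strand). Kel (chromosome 6, 41686330 to 41704339, minus strand) encodes the Kell glycoprotein, an enzyme of the zinc endopeptidase family that is linked to the membrane protein Xk. Ank1 (chromosome 8, 22974844 to 23150497, plus strand) encodes ankyrin-1. Sptb (chromosome 12, 76580488 to 76710547, minus strand) encodes the beta chain of erythroid spectrin. The junction proteins beta-adducin and dematin come from Add2 (chromosome 6, 86028681 to 86124409, plus strand) and Dmtn (chromosome 14, 70601263 to 70636048, minus strand). All 8 are annotated as protein-coding in GENCODE M21.

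Promoter sequence, from 250 bases before to 50 bases after the annotated start, was matched for 5 of the 8 genes (Sptb, Rhag, Rhd, Kel and Add2) in RefSeq on GRCm38.p6. The promoters of Kel, Rhag and Rhd are shown because Kel had lower, and Rhag and Rhd higher, levels in the fetal IHG library at intermediate haemoglobin content. They are written 5′ to 3′ on the gene's strand, at chr6:41704276-41704575 for Kel (minus), chr17:40810899-40811198 for Rhag (plus) and chr4:134864286-134864585 for Rhd (plus). Capitals mark AGATAA or the variant TGATAA, and AGATAG or the variant TGATAG, on either strand, the letters bound by the erythroid factor GATA1.
Kel: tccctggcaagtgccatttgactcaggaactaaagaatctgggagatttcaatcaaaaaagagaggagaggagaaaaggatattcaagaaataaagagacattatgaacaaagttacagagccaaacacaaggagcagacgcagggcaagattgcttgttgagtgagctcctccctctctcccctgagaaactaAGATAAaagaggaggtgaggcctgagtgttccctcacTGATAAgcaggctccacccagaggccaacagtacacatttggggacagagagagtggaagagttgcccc
Rhag: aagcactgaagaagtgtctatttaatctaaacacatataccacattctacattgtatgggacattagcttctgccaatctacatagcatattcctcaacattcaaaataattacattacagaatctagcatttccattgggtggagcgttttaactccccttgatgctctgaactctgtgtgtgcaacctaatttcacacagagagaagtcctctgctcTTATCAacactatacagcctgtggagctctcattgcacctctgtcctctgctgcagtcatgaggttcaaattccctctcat
Rhd: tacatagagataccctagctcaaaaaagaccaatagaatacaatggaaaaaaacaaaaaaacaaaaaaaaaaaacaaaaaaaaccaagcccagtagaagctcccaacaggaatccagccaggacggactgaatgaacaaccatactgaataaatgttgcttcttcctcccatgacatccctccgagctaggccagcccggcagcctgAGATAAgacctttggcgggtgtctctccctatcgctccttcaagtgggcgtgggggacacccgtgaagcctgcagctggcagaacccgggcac
These letters begin 56 and 19 bases before the start of Kel, 31 bases before that of Rhag and 43 bases before that of Rhd. All 5 matched promoters held at least 1 match, against 29.8% of the 32851 mouse promoters of the same length. The letters CCNCNCCC, which KLF-type factors bind, were searched on both strands with overlapping matches counted, and were present in Sptb, Rhd and Add2 but not in Rhag or Kel. Of all promoters, 49.5% held them. A match is a description of the letters and not evidence of binding.

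The fetal libraries held 7925 IHG and 7594 Ctrl cells after filtering, and 2887 (36.4%) and 3380 (44.5%) of these were erythroid-like. The erythroid-like clusters were named from other erythroid markers, and the 8 genes were left out of the clustering. Haemoglobin made up 20.4% of all UMIs (unique molecular identifiers, each a counted RNA molecule) in the fetal IHG library and 35.4% in the fetal Ctrl library. Between any pair of libraries, 8 to 26 cell barcodes were shared, at most 0.380% of the smaller library. Erythroid-like cells were split by the share of haemoglobin in their UMIs into 5 strata, with bounds at 5, 20, 50 and 80%. The strata held 564, 371, 508, 643 and 801 IHG cells, and 294, 394, 654, 872 and 1166 Ctrl cells, from the lowest to the highest share. Levels are UMIs per 1000000 UMIs that are not haemoglobin (CPM), since haemoglobin itself defines the strata.

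All 8 genes were concentrated in the erythroid-like cells. Of each gene's UMIs in kept fetal cells, 91.8 to 96.1% (IHG) and 90.7 to 93.8% (Ctrl) lay in them. Their summed level was 689, 1710, 3102, 7148 and 6364 CPM over the strata of the IHG library, and 741, 1590, 2863, 6702 and 8357 CPM in Ctrl. The libraries thus differed in shape at the upper end, where the sum was lower in the top IHG stratum than in the one before it and higher in Ctrl. Relative to all UMIs, haemoglobin included, the picture along the strata is different. The summed level of the 8 genes then fell from the 50 to 80% stratum to the top stratum in both libraries. On that scale Slc4a1, Kel and Dmtn were still higher in the top stratum than in the lowest, Kel by 3.05-fold (IHG) and 3.31-fold (Ctrl) and Dmtn by 2.84-fold and 3.19-fold. The remaining 5 genes stood there at 0.340 to 0.783 (IHG) and 0.415 to 0.903 (Ctrl) times their level in the lowest stratum. Differences in CPM along the strata are therefore differences relative to the other non-haemoglobin RNA of the cell. From the lowest to the top stratum, Slc4a1, Kel and Dmtn differed in the same direction relative to all UMIs.

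Slc4a1 had the steepest profile of the 8. Its level was 33.0, 391, 848, 2245 and 2812 CPM over the IHG strata, and 51.9, 368, 838, 2256 and 3650 CPM over the Ctrl strata. The highest stratum was 85.3-fold (IHG) and 70.3-fold (Ctrl) above the lowest. In the lowest stratum the CPM was close to that of B-like cells, which make no band 3 and had 32.0 CPM in IHG and 43.8 CPM in Ctrl. The ratio of CPM to that of B-like cells was 1.03 in IHG and 1.19 in Ctrl. Per 1000 haemoglobin UMIs, Slc4a1 was higher in the stratum than in B-like cells, at 3.22 against 1.98 in IHG and 2.92 against 1.74 in Ctrl.

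The Rh complex genes behaved otherwise than Slc4a1 and were already well above background in the cells with the least haemoglobin. Sptb, Ank1 and Add2 shared this. Their lowest stratum was 12.1-fold, 12.9-fold and 22.9-fold above B-like cells in IHG, and 8.81-fold, 15.5-fold and 26.4-fold in Ctrl. Rhag had 141, 217, 280, 562 and 602 CPM over the IHG strata, and 126, 165, 243, 450 and 596 CPM over the Ctrl strata. Its lowest stratum was 28.2-fold (IHG) and 29.6-fold (Ctrl) above B-like cells, and its whole range over the strata was 4.26-fold and 4.72-fold. For Rhd the levels were 326, 682, 1331, 2892 and 1680 CPM in IHG, and 330, 619, 1087, 2375 and 2093 CPM in Ctrl. Rhd was highest at 50 to 80% haemoglobin in both libraries, and the top IHG stratum stood at 58.1% of that peak, against 88.1% in Ctrl.

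Kel followed Slc4a1 in having its highest CPM in the top stratum of both libraries, and in being highest at 50 to 80% haemoglobin per all UMIs. The IHG strata had 34.1, 99.6, 184, 552 and 684 CPM, and the Ctrl strata had 48.5, 117, 232, 650 and 1129 CPM. The top stratum was 20.1-fold (IHG) and 23.3-fold (Ctrl) above the lowest, which itself was 4.99-fold and 4.98-fold above B-like cells.

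The skeleton genes Ank1 and Sptb had flatter profiles that peaked at 50 to 80% haemoglobin. Ank1 was at 39.5, 82.3, 115, 232 and 178 CPM over the IHG strata, and at 59.4, 87.7, 123, 258 and 231 CPM over the Ctrl strata. Sptb gave 52.1, 118, 172, 315 and 173 CPM in IHG, and 56.0, 112, 159, 313 and 278 CPM in Ctrl. Highest over lowest, Ank1 spanned 5.88-fold (IHG) and 4.34-fold (Ctrl), and Sptb spanned 6.04-fold and 5.58-fold. In the top stratum Sptb kept 55.0% of its peak in IHG and 88.8% in Ctrl.

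The junction genes differed from each other. Add2 varied least of the 8, with 57.3, 76.9, 91.2, 174 and 128 CPM over the IHG strata and 59.8, 78.2, 86.6, 173 and 175 CPM over the Ctrl strata. Dmtn had 5.71, 43.4, 80.1, 175 and 106 CPM in IHG, and 9.15, 42.6, 93.3, 229 and 205 CPM in Ctrl. Add2 spanned 3.04-fold in IHG and 2.92-fold in Ctrl, whereas Dmtn spanned 30.7-fold in IHG and, at its Ctrl peak, stood at 229 CPM against 9.15 CPM in the lowest stratum. In the lowest stratum Dmtn was 5.12-fold (IHG) and 3.00-fold (Ctrl) above B-like cells, on 99 and 43 UMIs.

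**Figure D1:**
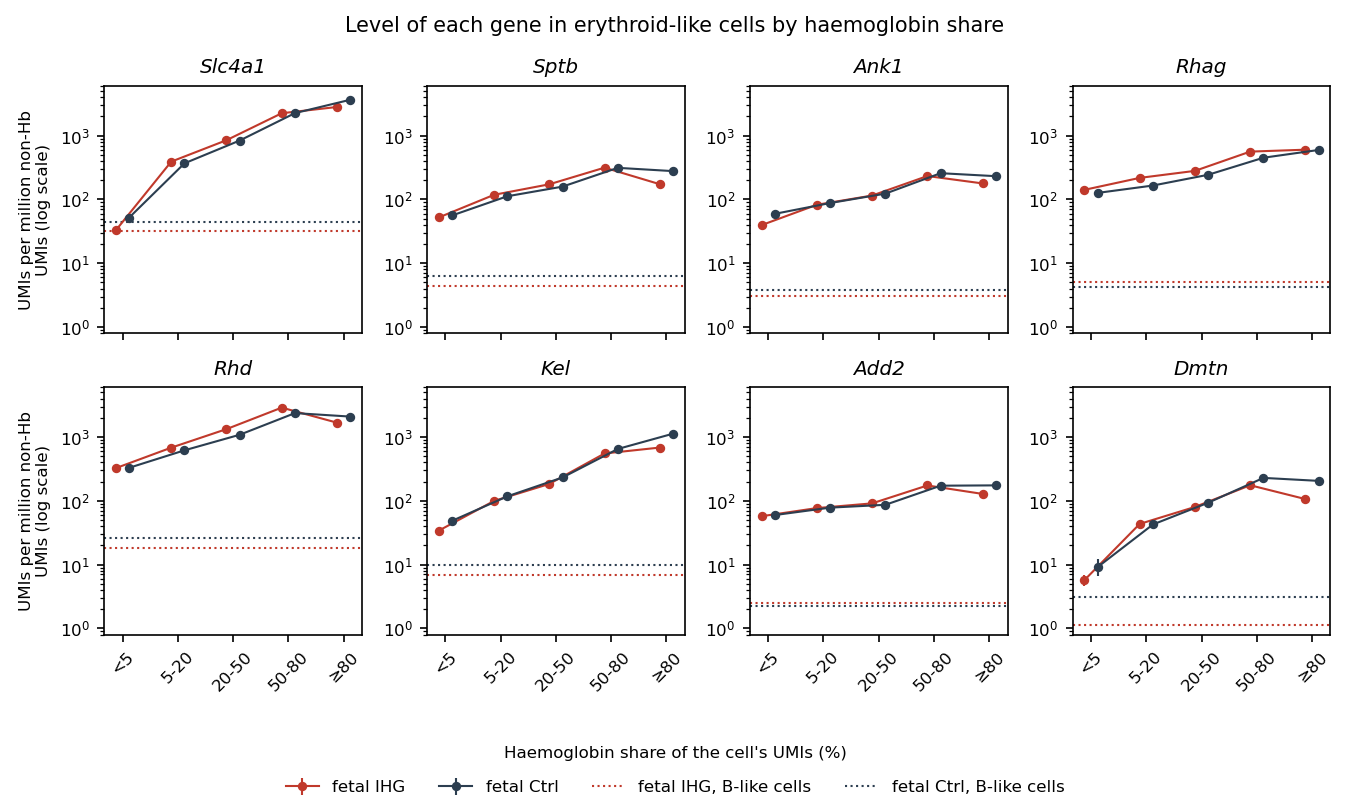
Level of each of the 8 genes (CPM of non-haemoglobin UMIs, log scale) in erythroid-like cells by the haemoglobin share of a cell's UMIs, for the fetal IHG (red) and fetal Ctrl (dark) library. Bars are exact 95% Poisson intervals and dotted lines give the level in B-like cells. Slc4a1 starts near its B-like CPM and spans 85.3-fold in IHG and 70.3-fold in Ctrl, while Rhag and Add2 start far above theirs and span 4.72-fold or less.

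At equal depth Rhag, but not Slc4a1, stood clear of B-like cells in the lowest stratum. With each cell thinned to 2000 UMIs, Rhag had a UMI in 23.3% of IHG and 15.4% of Ctrl cells of the lowest stratum, against 1.47% and 0.557% of B-like cells. For Slc4a1 the same shares were 5.14% and 10.3%, against 5.78% and 6.91% of B-like cells, with intervals that overlap. In the 50 to 80% stratum Slc4a1 was seen in 71.8% (IHG) and 75.7% (Ctrl) of thinned cells, and Rhd in 78.7% and 76.4%. The median number of the 8 genes seen per thinned cell was 1, 2, 2, 3 and 1 over the IHG strata and 1, 2, 2, 3 and 2 over the Ctrl strata, and 0 in B-like cells of either library. The 2000 UMIs include haemoglobin, so thinned cells of higher strata keep fewer non-haemoglobin UMIs. These shares and medians are therefore not at equal non-haemoglobin depth. Thinning left out 244 IHG and 211 Ctrl erythroid-like cells that had fewer UMIs. Without thinning the members' median share over all erythroid-like cells was 61.8% in IHG and 57.0% in Ctrl, against 16.4% and 16.5% at equal depth.

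The genes whose profile over the 10 stratum values of both libraries was most like that of each of the 8 were found by Pearson's r of log2(CPM + 1) among 1948 genes. These values share libraries and stages, and r is given as a description. For Slc4a1 they included Tmod1 (tropomodulin, r = 0.995) and Smox (0.995). Rhd was closest to Klf3, Atp6v1d and Pir (0.997, 0.997 and 0.996), and Rhag to Ptbp3, 1300017J02Rik and Sh3yl1 (0.995 each). Kel was closest to Nxpe2, Usp25 and Isg20 (0.998, 0.997 and 0.996). Dmtn was closest to Slc6a9 (a glycine transporter, 0.996), Abcb10 (a mitochondrial transporter used in haem synthesis, 0.996) and Hagh (0.994). Sptb led with Hagh, Rnf123 and Klf3 (0.991, 0.990 and 0.990), Ank1 with Samd11, Brpf3 and Tmem86b (0.991, 0.990 and 0.987), and Add2 with Cyb5a, Kcnn4 and Chmp3 (0.991, 0.988 and 0.987). Among the 8 genes themselves r lay between 0.881 (Rhag with Dmtn) and 0.984 (Sptb with Rhd and with Dmtn).

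Over all erythroid-like cells together the 8 genes were lower in IHG. Slc4a1 was at 568 CPM in IHG and 1072 CPM in Ctrl, Rhag at 238 and 270 CPM, and Rhd at 856 and 1152 CPM. Kel was at 149 CPM in IHG and 322 CPM in Ctrl, Ank1 at 83.7 and 136 CPM, Sptb at 113 and 166 CPM, Add2 at 80.4 and 103 CPM, and Dmtn at 44.9 and 99.4 CPM. Their median log2 ratio, IHG over Ctrl, was -0.63, against 0.27 over the 11319 genes measured with at least 20 UMIs. Of those genes 30.0% were lower in IHG, and 14.2% were higher by 2-fold or more. Among the 1428 genes with at least 100 CPM in either library, 683 were lower and 34 were higher by 2-fold or more, with a median of 0.02. Kel (-1.11, interval -1.16 to -1.06) and Dmtn (-1.15, -1.24 to -1.05) were lower by 2-fold or more, as were 2.13% of the genes measured. The cells compared differed in stage, since the lowest haemoglobin stratum made up 19.5% of erythroid-like cells in IHG and 8.70% in Ctrl, and the highest 27.7% and 34.5%. With Ctrl cells reweighted to the IHG distribution over haemoglobin shares, the members' median was -0.15, Kel was at -0.49 and Dmtn at -0.51, while Rhag (0.17) and Rhd (0.06) were above 0. Other settings moved the median by a similar amount, and some of them also changed the stages included. The part of stage in the lower level was not tested.

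Within the 3 middle strata the members' median was close to 0 and hid opposite directions. It was 0.05, 0.05 and 0.00 from 5 to 20%, 20 to 50% and 50 to 80% haemoglobin, with 5, 5 and 4 of the 8 higher in IHG and none past 2-fold. Of all genes measured, 62.6%, 57.2% and 52.4% were higher in IHG. Medians over all genes in these strata were 0.12, 0.06 and 0.03. Higher by 2-fold or more were 4.39%, 2.98% and 4.49% of all genes, and lower by as much were 1.60%, 2.06% and 2.91%.

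Rhag had higher values in IHG in the 3 middle strata. Its log2 ratio was 0.40 (0.26 to 0.53), 0.20 (0.10 to 0.30) and 0.32 (0.22 to 0.41) in the 3 middle strata, and 0.16 (0.03 to 0.29) in the lowest. In the top stratum it was 0.01 (-0.11 to 0.14), within counting error of no difference. In all 15 alternative settings Rhag stayed above 0 in the 4 lower strata, though in the lowest it came to 0.002 with erythroid cells chosen cell by cell. It was above 0 in 6 of the 7 erythroid-like clusters, and at -0.04 (-0.16 to 0.09) in cluster 11, which held most IHG cells of the lowest stratum. Rhd, its partner, was also higher in the middle strata, at 0.14 (0.07 to 0.21), 0.29 (0.25 to 0.34) and 0.28 (0.24 to 0.33), again in all 15 settings. At 5 to 20% haemoglobin Rhd came to 0.02 under median-of-ratios scaling.

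Kel had lower values in IHG in every stratum. The log2 ratio was -0.51 (-0.73 to -0.28), -0.24 (-0.42 to -0.06), -0.34 (-0.45 to -0.22), -0.23 (-0.32 to -0.15) and -0.72 (-0.83 to -0.62) from the lowest to the highest. It was below 0 in all 7 erythroid-like clusters too, between -0.19 and -0.69. The exceptions among alternatives were 3 of 15 settings in the lowest stratum, which gave up to 0.53, and cells thinned to 2000 UMIs at 50 to 80%, which gave 0.04. Dmtn was lower in 4 of the 5 strata, at -0.69 (-1.21 to -0.13), 0.03 (-0.25 to 0.31), -0.22 (-0.40 to -0.04), -0.38 (-0.54 to -0.23) and -0.95 (-1.22 to -0.68). Dmtn too was below 0 in all 7 clusters, but its interval spanned 0 in clusters 4 (-0.17), 5 (-0.04) and 10 (-0.23).

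Slc4a1, Sptb, Ank1 and Add2 differed little in the middle strata. Slc4a1 was within 0.09 of 0 there, Sptb within 0.12 and Add2 within 0.08, each with an interval that spans 0. Ank1 was at -0.09, -0.10 and -0.15, and its interval excluded 0 in the 50 to 80% stratum alone (-0.29 to -0.01).

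**Figure D2:**
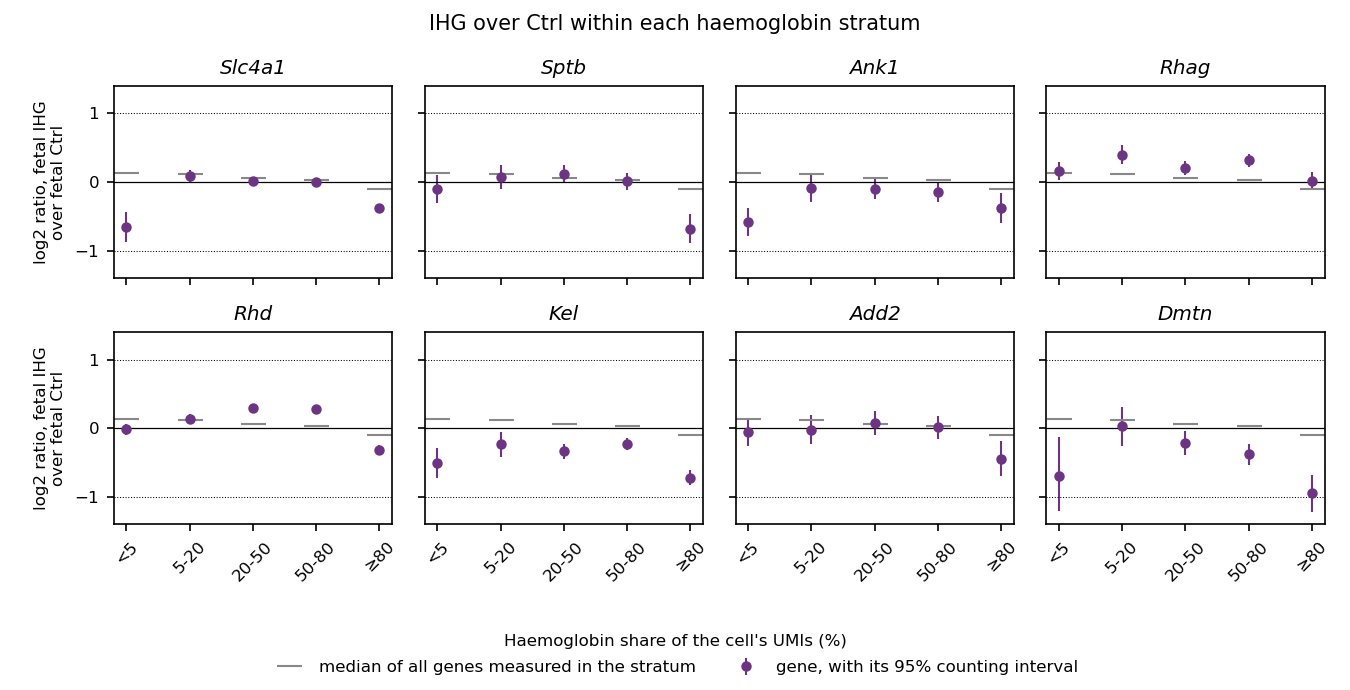
Log2 ratio, fetal IHG over fetal Ctrl, of each gene by haemoglobin share of the cell's UMIs, with its exact 95% counting interval. Grey dashes are the median over all genes measured in the stratum, and dotted lines mark 2-fold. Rhag lies at or above 0 in every stratum, Kel lies below 0 in every stratum, and 7 of the 8 genes are below 0 at 80% and over.

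The top stratum, where haemoglobin took at least 80% of UMIs, set the libraries apart. There 7 of the 8 genes were lower in IHG, all 7 with intervals below 0, and none by 2-fold. Of the 4855 genes measured in that stratum 57.4% were lower, 9.10% by 2-fold or more, and 5.17% were higher by 2-fold or more. The members' median was -0.41, against -0.10 over all genes. Among the 1085 genes with at least 100 CPM in either library, 558 were lower, with a median of -0.01. Slc4a1 had 2812 CPM in IHG and 3650 CPM in Ctrl (log2 ratio -0.38, -0.43 to -0.32). Sptb stood at 173 CPM in IHG, against 278 CPM in Ctrl (-0.68, -0.90 to -0.47). Kel was at 684 CPM in IHG and 1129 CPM in Ctrl, and Dmtn at 106 and 205 CPM. Ank1 gave -0.38 (-0.60 to -0.16), Add2 -0.44 (-0.70 to -0.19) and Rhd -0.32 (-0.39 to -0.25). All 7 were below 0 in all 15 alternative settings, and the median ranged from -0.52 to -0.29 over them. The sign alone held for Ank1, which came to -0.004 with cells thinned to 2000 UMIs, and for Rhd, at -0.02 as a mean over cells.

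At equal total depth, haemoglobin included, the same stratum gave Kel UMIs in 18.7% of IHG cells (16.1 to 21.6%) and 26.9% of Ctrl cells (24.4 to 29.6%). Dmtn was seen in 21 of 801 IHG cells and 70 of 1166 Ctrl cells, and Rhag in 17.0% (14.4 to 19.8%) and 13.3% (11.4 to 15.4%). For Slc4a1 the shares were 58.2% in IHG and 62.9% in Ctrl, with intervals that overlap. B-like cells thinned alike had Kel in 1.26% (IHG) and 1.84% (Ctrl) of cells and Dmtn in 0.210% and 0.724%.

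The cells of the top stratum were not alike in the libraries. Their median haemoglobin share was 85.1% in IHG and 86.8% in Ctrl, and their median non-haemoglobin UMIs were 1914 and 1349. Markers of dividing cells were lower in IHG, Mki67 at 291 CPM against 651 CPM in Ctrl (-1.16) and Top2a at 51.7 against 94.9 CPM (-0.87). Genes of late red cell development were higher, with Bpgm, the enzyme that makes bisphosphoglycerate, at 6299 CPM in IHG and 4386 CPM in Ctrl (0.52), Tent5c at 0.57 and the mitophagy receptor Bnip3l at 0.28. Summed macrophage markers in the stratum were 146 CPM in IHG and 2.70 CPM in Ctrl (9 of 9 higher in IHG, with 5 at 0 in Ctrl), and neutrophil markers 10046 and 8081 CPM (6 of 8 higher, none at 0). Megakaryocyte markers were at 127 and 21.6 CPM (7 of 7 higher, with 1 at 0 in Ctrl) and hepatocyte markers at 854 and 425 CPM (6 of 7 higher, none at 0). B cell markers were 154 and 313 CPM (9 of 9 lower, none at 0). The part of stage and of these markers in the members' difference was not tested.

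Clusters 3 and 10, which held most cells of the top stratum, differed from each other. Ratios by cluster cover all cells of a cluster, also those below the top stratum. In the top stratum lay 86.0% (IHG) and 93.2% (Ctrl) of cluster 3, and 83.8% and 88.9% of cluster 10. Cluster 3, which held 425 of the 801 IHG cells and 517 of the 1166 Ctrl cells of that stratum, had Slc4a1 at -0.44 (-0.51 to -0.37), Sptb at -0.61 (-0.88 to -0.33) and Ank1 at -0.55 (-0.84 to -0.26). Cluster 10, with 284 IHG and 455 Ctrl cells of the stratum, had Slc4a1 at -0.07 (-0.15 to 0.02), Sptb at -0.23 (-0.57 to 0.09) and Ank1 at 0.26 (-0.06 to 0.58). Kel was at -0.69 (-0.82 to -0.55) in cluster 3 and -0.67 (-0.83 to -0.50) in cluster 10. Rhd was at 0.04 (-0.07 to 0.15) and 0.22 (0.11 to 0.32) over all cells of these clusters. Over the top stratum Rhd was lower in IHG (-0.32), but the cells compared are not the same. Among the 8 genes, Kel and Dmtn alone were below 0 in each of these clusters as well as in every other erythroid-like cluster. For Kel every interval excluded 0. Dmtn was at -0.83 (-1.17 to -0.49) in cluster 3 and -0.23 (-0.66 to 0.19) in cluster 10.

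In the lowest stratum 7 of the 8 genes were lower in IHG and the median was -0.31, against 0.13 over 10192 genes, of which 37.0% were lower. None of the 8 passed 2-fold, as 6.03% of genes did upward and 1.18% downward. Ank1 was at -0.59 (-0.79 to -0.38) and Slc4a1 at -0.66 (-0.87 to -0.43). Rhd (-0.02), Add2 (-0.06) and Sptb (-0.11) had intervals that span 0. The cells differed in depth, with a median of 33482 UMIs in IHG and 7852 in Ctrl, and in haemoglobin share, with medians of 0.589% and 2.05%. Cluster 11 held 466 of the 564 IHG cells and 118 of the 294 Ctrl cells. Among the alternatives, 4 of 15 settings turned the median positive, up to 0.43, so no direction is read from this stratum.

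A wider list of 23 red cell membrane genes, chosen by their known roles, had a median closer to 0 in the top stratum. It was -0.19 there, with 15 lower and 8 higher, 2 and 1 of them by 2-fold or more. Of all genes in that stratum 57.4% were lower, 9.10% lower by 2-fold and 5.17% higher by 2-fold. Over all erythroid-like cells the list's median was -0.34, with 20 lower, beside 30.0% of all genes lower. Over the 4 lower strata its median was -0.07, 0.09, 0.12 and 0.15. The 7 skeleton and junction genes divided. Add1, the alpha-adducin gene, was at 190 CPM in IHG and 260 CPM in Ctrl in the top stratum (-0.45, -0.66 to -0.24). Epb41, which encodes protein 4.1, was at 1984 CPM in IHG and 1787 CPM in Ctrl (0.15, 0.08 to 0.22), and Mpp1, a membrane scaffold, at 1415 and 1044 CPM (0.44, 0.35 to 0.53). Add3, the gamma-adducin gene, was higher in all 5 strata (0.58 to 1.73) but on 8 to 218 UMIs per library and stratum.

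Of the 9 genes of the band 3 and Rh complexes and the glycoproteins, 7 were lower in IHG in the top stratum, 5 of them with intervals below 0, beside 57.4% of all genes lower. Gypc, whose product binds protein 4.1, was at 57.3 CPM in IHG and 124 CPM in Ctrl (-1.11, -1.48 to -0.76), and Icam4, an adhesion protein of the Rh complex, at 248 and 487 CPM (-0.97, -1.15 to -0.80). Epb42, protein 4.2, was at -0.19 and Cd47 at -0.18 there, and both were above 0 in the 3 middle strata. Xk, the partner of Kell, had 97.1 CPM in IHG and 92.2 CPM in Ctrl (0.08, -0.25 to 0.40), where Kel was at -0.72.

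Among the transporters, Aqp1, the water channel, was lower in IHG in all 5 strata, at -0.56, -0.61, -0.85, -1.25 and -2.14, the last on 20 IHG and 104 Ctrl UMIs. Slc2a1, the glucose transporter GLUT1, was higher in all 5, at 0.37, 0.29, 0.91, 1.50 and 0.91. In the top stratum Slc2a1 stood at 1271 CPM in IHG and 678 CPM in Ctrl (0.80 to 1.01).

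**Figure D3:**
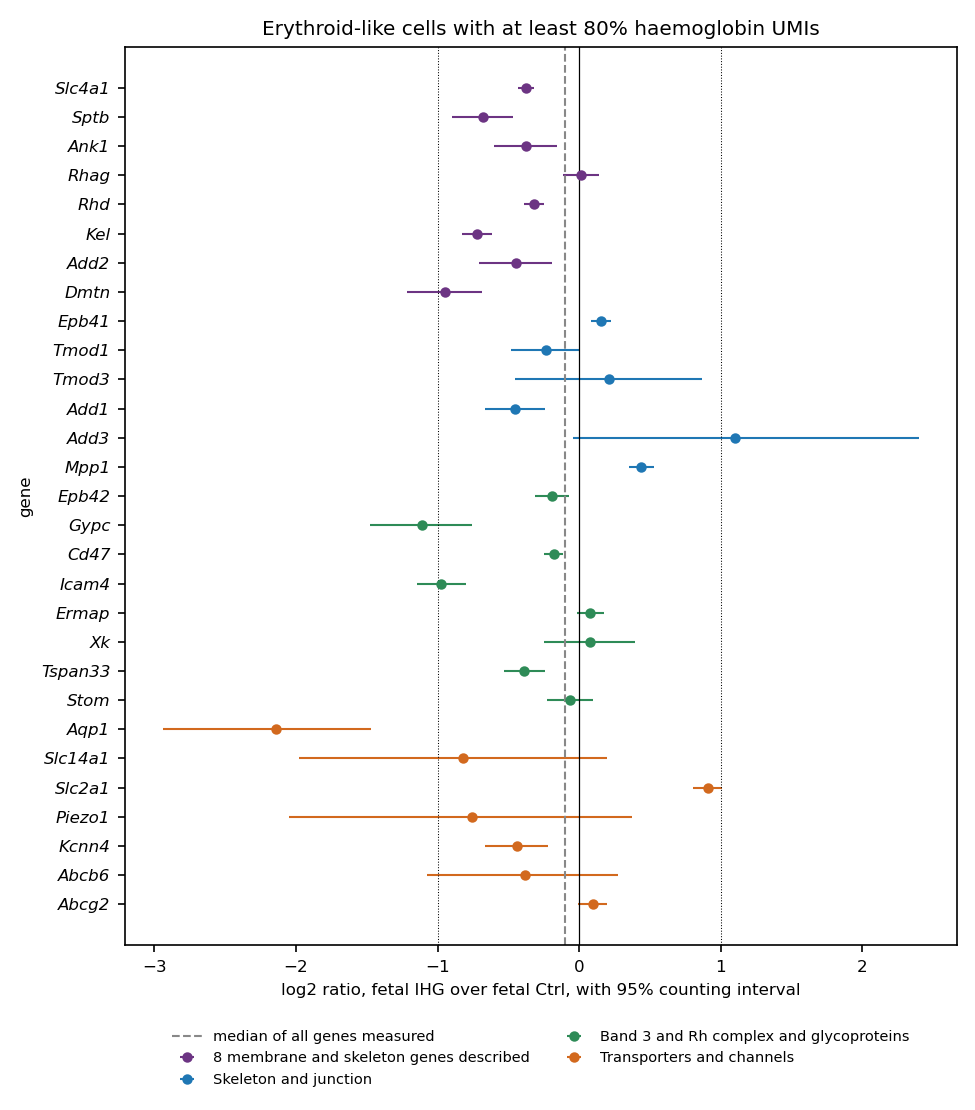
Log2 ratio, fetal IHG over fetal Ctrl, in erythroid-like cells with at least 80% haemoglobin UMIs, for the 8 genes and for 21 of the 23 further membrane genes by role, with exact 95% counting intervals. The dashed line is the median of all genes measured (-0.10) and dotted lines mark 2-fold. Aqp1 (-2.14) and Gypc (-1.11) lie lowest, and Slc2a1 (0.91) lies opposite to Kel (-0.72) and Dmtn (-0.95).

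In the other named fetal classes the 8 genes were low. Unnamed clusters 24 and 16 scored best as erythroid but were left out of the erythroid-like class, and were not low. The summed level in cluster 24 was 9658 CPM in IHG (39 cells) and 7999 CPM in Ctrl (16 cells). In cluster 16 it was 996 CPM in IHG (54 cells) and 1832 CPM in Ctrl (333 cells). In IHG, B-like cells had 524 UMIs of the 8 genes beside 116428 UMIs of haemoglobin. In Ctrl they had 1143 and 289116, or 3.95 per 1000 haemoglobin UMIs. Over all erythroid-like cells the rate per 1000 was 3.67 in IHG and 3.04 in Ctrl. That rate was 1.13 (IHG) and 1.36 (Ctrl) in the top erythroid-like stratum. Slc4a1 made up 43.9% (IHG) and 44.0% (Ctrl) of the UMIs of the 8 genes in B-like cells, 26.6% and 32.3% in all erythroid-like cells, and 44.2% and 43.7% in the top stratum. Hepatocyte-like cells had lower levels in IHG for all 8, with a median log2 ratio of -2.50, and in the same class haemoglobin was 1.48% of UMIs in IHG and 15.6% in Ctrl. In neutrophil-like cells all 8 were lower as well (-1.10), with haemoglobin at 1.00% and 3.06%. All 7 genes measured in monocyte-like cells were lower (-2.09), with haemoglobin at 1.32% and 7.49%. Of all genes, 51.1% in hepatocyte-like, 31.0% in neutrophil-like and 39.2% in monocyte-like cells were lower in IHG. Lower by 2-fold or more were 9.29%, 3.56% and 3.28% of all genes in these 3 classes. In B-like cells, with haemoglobin at 1.60% in IHG and 2.46% in Ctrl, 6 of the 8 were lower, as were 39.6% of all genes, and Rhag (0.24) and Add2 (0.16) were above 0 with intervals that span it. Of 4 genes measured in myeloid progenitor-like cells, with haemoglobin at 1.22% and 1.78%, Slc4a1 (-0.49) and Kel (-1.05) were lower and Rhag (0.77) and Rhd (0.39) higher, where 26.7% of all genes were lower.

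Outside the erythroid lineage, levels in the IHG library were highest in macrophage-like cells, where haemoglobin was 9.87% of UMIs. There Slc4a1 had 190 CPM (170 to 211), Rhd 138 CPM and Kel 31.2 CPM, below the 255, 259 and 54.6 CPM of Ctrl hepatocyte-like cells, and the 8 genes gave 4.67 UMIs per 1000 haemoglobin UMIs. Only 6 Ctrl cells were macrophage-like, so no comparison was made. In megakaryocyte-like cells Sptb had 36 UMIs in 73 IHG cells, or 32.6 CPM (22.8 to 45.1), which is 3.72 per 1000 haemoglobin UMIs against 0.195 in erythroid-like cells. By the same measure Ank1 was at 0.929 against 0.144 and Dmtn at 0.413 against 0.0773, on 9 and 4 UMIs, and Add2 at 0.103 against 0.138. Slc4a1 (2.58 against 0.977), Rhag (0.826 against 0.410), Kel (0.516 against 0.257) and Rhd (1.65 against 1.47) were also higher. The rate depends on the haemoglobin of the cells compared. Each of the 8 genes had a higher rate in IHG erythroid-like cells under 5% haemoglobin, with Sptb at 5.08, Ank1 at 3.86 and Dmtn at 0.557. Ctrl had 10 such cells with 2 Sptb UMIs.

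**Figure D4:**
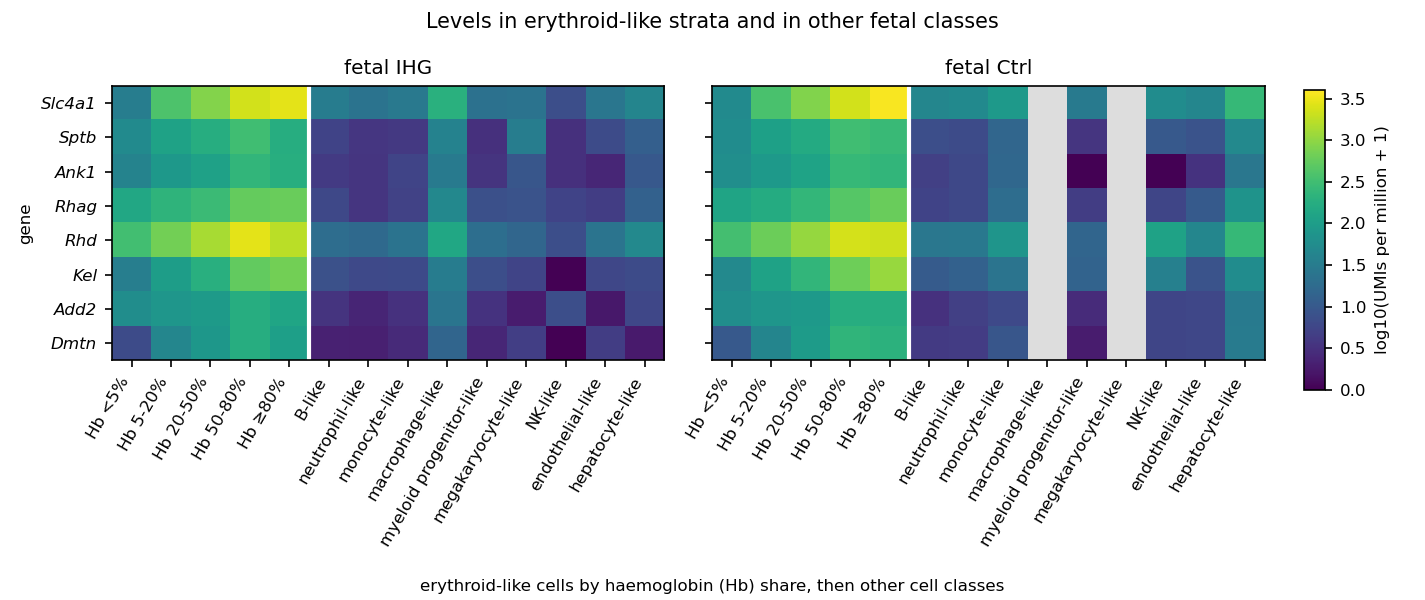
Level of each gene (log10 of CPM plus 1) in erythroid-like strata, left of the white line, and in other fetal classes, right of it, for the IHG and the Ctrl library. Grey marks classes with under 20 cells. Levels outside the erythroid lineage are highest in macrophage-like cells of IHG, with Slc4a1 at 190 CPM, and in hepatocyte-like cells of Ctrl, with Slc4a1 at 255 CPM.

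Adult livers contained almost none of these transcripts, and no adult cluster was erythroid-like. Over 6500 IHG and 4951 Ctrl cells the 8 genes gave 15 and 19 UMIs. Slc4a1, Rhag and Kel had 0 UMIs in both adult libraries, which allows up to 0.165 CPM in IHG and 0.180 CPM in Ctrl. Sptb had 3 and 10 UMIs, Dmtn 7 and 5, Rhd 3 and 3, Ank1 2 and 0, and Add2 0 and 1. At these counts no difference between adult IHG and adult Ctrl was detectable. Rhd UMIs lay in plasma-like cells in IHG (3 of 3) and in Ctrl (2 of 3). One adult IHG barcode held 2065 of the library's 2131 haemoglobin UMIs among its 2720 UMIs, and had 0 UMIs of the 8 genes.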

How the data were processed

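The authors deposited UMI counts for each gene and barcode. Per the file headers these came from Cell Ranger 5.0.0, and the submitters' processing notes also name mm10 and Seurat, with no step given. Libraries held 105382968 (fetal IHG), 77874423 (fetal Ctrl), 19366065 (adult IHG) and 17987173 (adult Ctrl) UMIs. Barcodes with under 300 genes or over 25% mitochondrial UMIs were dropped. Scrublet removed 267 fetal IHG and 107 fetal Ctrl doublets. In the adult libraries its threshold marked under 0.5%, so scores above the 95th percentile were removed (286 and 244). Libraries were clustered jointly within each age in scanpy 1.11.5 (2000 variable genes, 30 components, 15 neighbours, Leiden resolution 1.0), without the 8 genes or the list of 23. Clusters were named from marker lists. A minimum class score was dropped after the clusters had been seen, since it left cluster 11 unnamed. Counts were summed per library and class, with 0.5 added before log2 ratios. Genes named as alike are the 3 of highest r per member, with at least 100 CPM in 1 stratum. Single values of 2 list genes, 1 of them also among the alike genes, are not reported here. The interval step was tested on simulated counts. Members, lists and strata were chosen with earlier results of these data known.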

Additional observations from a re-analysis of the deposited data

How the results depend on the processing

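No paired analysis was possible because each group holds 1 library. Of the alternative values of summary results, 94 stayed within a tolerance, 26 moved beyond it, 5 of these to the other side of 0, and 2 whose reported value was past 2-fold changed sign. The tolerance ran between the medians of the single genes' interval ends, and is not the counting error of the median itself. The members' median over all erythroid-like cells (-0.63) stayed negative: -0.22 per all UMIs, -0.90 under median-of-ratios scaling, -0.17 with up to 50% mitochondrial UMIs, -0.34 with each library clustered by itself, -0.44 with cells thinned, -0.32 as a mean over cells, and, as alternatives chosen after seeing the data, -0.094 with a minimum class score of 1 and -0.15 with Ctrl cells reweighted by haemoglobin. In the lowest stratum (-0.31) it was 0.43, 0.34, 0.18 and 0.24 with up to 50% mitochondrial UMIs, libraries clustered separately, the minimum score and reweighting, and -0.78 as a mean over cells. Cluster 11 had a median haemoglobin share of 0.702%. The lowest such median of an erythroid-like cluster was 9.82% with up to 50% mitochondrial UMIs and 17.4% with the minimum score. With libraries clustered separately it was 5.70% (IHG) and 12.6% (Ctrl), so these settings also changed which cells were included. The members' median of highest over lowest stratum (2.27 in IHG, 2.49 in Ctrl) reversed to -0.45 and -0.33 per all UMIs. It was 1.85 and 2.90 with up to 50% mitochondrial UMIs, 1.79 and 3.35 with libraries clustered separately, 2.09 and 3.01 with the minimum score, 2.81 and 2.78 with cells thinned, and 2.73 and 2.21 between clusters. The list of 23 genes moved to 0.064 over all erythroid-like cells per all UMIs. Shares of cells with a UMI were 61.8% and 57.0% unthinned. Of the alternative values of single genes, 544 stayed within counting error and 175 did not. The causes were not tested. Libraries are single, so animal and capture differences cannot be told apart from IHG, and red cell lysis and the 300-gene minimum (which removed 165 of 969 IHG and 208 of 1383 Ctrl barcodes with at least 80% haemoglobin) limit what the top stratum holds.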
